A study of Homo sapiens with 42 samples.

Results

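Alternative promoters of protein-coding genes are start sites, other than the main annotated one, from which the same gene can be transcribed. Here they were the TSS of protein-coding transcripts in GENCODE release 44 (hg38, autosomes) that lay more than 5 kb from the canonical TSS of their own gene and of any other protein-coding gene. Of 66745 transcripts that were not canonical, 16274 passed that distance. TSS within 500 bp were merged, which left 11830 alternative promoters of 6176 genes. They were scored with 19111 canonical autosomal promoters, 30941 promoters in all, each as a window of 1500 bp up- and downstream of the TSS. The rule uses positions in the annotation and no ChIP value. The canonical promoters of the same 6176 genes serve below as the comparison.

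The series comprises 42 ChIP-seq samples of human lung cancer lines, profiled to map the embryonic chromatin factors DPPA2 and DPPA4 and the histone marks around them. NCI-H661 cells, a large cell lung carcinoma line that expresses DPPA2/4 from its own genes, were parental and untreated. They gave 2 libraries for each of the factors DPPA2 and DPPA4 and the marks H3K4me1, H3K9me3, H3K27ac, H3K36me2, H3K36me3 and H2AK119ub, and 1 each for KDM2A and SUZ12. NCI-H1299 cells, a non-small cell lung cancer line without endogenous DPPA2/4, carried integrated doxycycline-inducible FLAG-DPPA2 and V5-DPPA4 constructs. DOX cells received 2 µg/mL doxycycline for 7 days and control cells received water for 7 days; both carried the constructs. Each gave 2 libraries for H3K27ac, H2AK119ub, H3K4me1, H3K36me3 and H3K9me3. No library of cells given doxycycline without the constructs was analysed here, so the drug and the induced proteins cannot be told apart. The factor ChIPs were double-crosslinked and the histone ChIPs were not, and the histone ChIPs used fewer NCI-H661 than NCI-H1299 cells. Labels do not say whether replicates were separate cultures, so their spread may be technical. In the label check, the canonical promoters of DPPA2 and DPPA4 held H3K27ac islands in both NCI-H661 libraries, at log2 folds of 2.71 and 3.11 for DPPA2 and of 2.80 and 2.93 for DPPA4. Neither had one in any DOX or control library. These windows check the line and not the integrated constructs.

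Many mammalian genes use more than 1 start site, and the choice can change the first exon, the protein's N-terminus or the tissue in which the gene is active. Canonical promoters often lie in CpG islands, stretches rich in unmethylated CG dinucleotides, whereas alternative start sites within gene bodies often do not. H3K27ac marks active promoters and enhancers, and H3K4me1 marks enhancers and promoter flanks. H2AK119ub is deposited by Polycomb repressive complex 1, and SUZ12 is a subunit of Polycomb repressive complex 2. KDM2A is an H3K36 demethylase that binds unmethylated CpG islands. H3K36me3 covers the bodies of transcribed genes, H3K36me2 covers broad intergenic and genic domains, and H3K9me3 marks heterochromatin. DPPA2 and DPPA4 form a complex in early embryos and pluripotent cells that primes promoters rich in CG.

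The data are the authors' lists of enriched intervals. An island is a broad interval from EPIC2 and a narrow peak comes from MACS2, and both were kept at a log2 fold over input above 1 and an FDR below 0.05. A promoter was said to carry a mark when an island of both libraries touched its window, and to be bound when it held a DPPA2/4 consensus peak, a narrow peak found in both DPPA2 and both DPPA4 lists with over 25% of each peak overlapping. The island lists held 137991 to 6961886 ChIP reads. Input coverage was uneven: 0.112% to 9.69% of islands held no input read in the NCI-H661 lists, 17.9% to 39.5% in the DOX lists and 24.5% to 62.8% in the control lists. Where the input count is 0, the log2 fold depends on depth, so read counts are given beside such folds.

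The sequences of 6 alternative promoters are given as examples. They were picked and grouped with the ChIP values known, so they illustrate and do not test. The 200 bases just upstream of the TSS are printed from the hg38 reference, with CG dinucleotides in capitals. An alternative promoter held a median of 2 CG in this stretch, and a canonical promoter of the same genes held 18; bound alternative promoters held 13 and unbound ones 2. None of the 6 stretches overlapped an annotated exon of a protein-coding gene. The first group was bound by DPPA2/4 in NCI-H661: ITGB2 (chr21:44931990-44932189, minus strand, 21 CG), VGLL4 (chr3:11719639-11719838, minus strand, 18 CG), PAX2 (chr10:100735196-100735395, plus strand, 10 CG) and GSE1 (chr16:85169325-85169524, plus strand, 40 CG).
ITGB2: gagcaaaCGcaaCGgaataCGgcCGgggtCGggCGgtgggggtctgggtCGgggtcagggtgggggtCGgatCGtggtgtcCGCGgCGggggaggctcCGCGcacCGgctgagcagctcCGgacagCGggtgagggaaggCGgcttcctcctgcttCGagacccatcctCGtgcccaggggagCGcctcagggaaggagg
VGLL4: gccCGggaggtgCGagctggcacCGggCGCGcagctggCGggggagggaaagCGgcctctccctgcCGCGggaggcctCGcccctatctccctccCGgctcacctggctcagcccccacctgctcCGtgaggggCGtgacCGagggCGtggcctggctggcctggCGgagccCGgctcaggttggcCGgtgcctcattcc
PAX2: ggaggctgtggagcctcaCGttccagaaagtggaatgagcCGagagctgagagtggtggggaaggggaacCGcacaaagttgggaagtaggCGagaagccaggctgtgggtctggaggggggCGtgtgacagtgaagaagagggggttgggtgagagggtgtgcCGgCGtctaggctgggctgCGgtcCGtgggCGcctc
GSE1: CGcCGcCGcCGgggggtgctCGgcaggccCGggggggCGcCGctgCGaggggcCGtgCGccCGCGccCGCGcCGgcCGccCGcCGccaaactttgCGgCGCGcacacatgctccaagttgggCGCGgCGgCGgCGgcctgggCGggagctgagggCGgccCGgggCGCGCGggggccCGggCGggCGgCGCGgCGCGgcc

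The second group was not bound and is shown for its H3K27ac in NCI-H1299: FRMD4A (chr10:13890659-13890858, minus strand, 8 CG), where islands were found in DOX but not control libraries, and ACVR1 (chr2:157838328-157838527, minus strand, 0 CG), where they were found in control but not NCI-H661 libraries.
FRMD4A: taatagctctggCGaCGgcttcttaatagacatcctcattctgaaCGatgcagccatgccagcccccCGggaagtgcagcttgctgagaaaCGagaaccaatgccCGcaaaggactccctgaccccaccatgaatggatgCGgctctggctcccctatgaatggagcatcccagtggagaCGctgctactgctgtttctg
ACVR1: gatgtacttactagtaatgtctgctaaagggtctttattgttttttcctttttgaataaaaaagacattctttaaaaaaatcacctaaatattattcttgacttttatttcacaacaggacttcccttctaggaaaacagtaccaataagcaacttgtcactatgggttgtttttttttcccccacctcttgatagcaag
The GSE1 stretch is 87.5% G and C and the ITGB2 stretch 72.0%, against 32.0% for ACVR1. FRMD4A falls between them, at 55.5%. GSE1 and ACVR1 are the extremes of the printed stretches in CG count. Bound and unbound alternative promoters as a whole differ by less, with medians of 13 and 2 CG.

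Most alternative promoters were CpG-poor and lay inside their gene. A CpG island (a stretch of 500 bp whose GC content is 55% or more and whose CpG count is 0.65 or more of that predicted from its base composition) was present in 1560 alternative promoters (13.2%), against 80.7% of canonical promoters of the same genes. The median window held 37 CpG dinucleotides, against 131, and was 44.3% GC, against 53.6%. Of the 11830, 10214 lay inside the gene's canonical transcript, 1593 upstream of it and 23 past its end. The median distance from the canonical TSS was 33741.5 bp and the largest 2222660 bp. There were 3464 genes with 1 alternative promoter, and GBF1 and SEPTIN9 had 15 each, the most of any gene. Windows are not all independent, since 1213 overlapped the window of the next. The annotation is also uneven: 4881 alternative promoters rested only on transcripts marked as lacking a found start, and 1987 had a basic transcript at the highest support level.

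Binding of DPPA2/4 was much sparser at alternative than at canonical promoters. Of 8825 consensus peaks in NCI-H661, 509 (5.77%) touched an alternative promoter, 5079 (57.6%) an autosomal canonical promoter and 3244 (36.8%) neither kind. This left 584 alternative promoters bound (4.94%), of 431 genes, against 1875 canonical promoters of the same genes (30.4%). The single lists gave the same order. Narrow peaks of DPPA2 replicates 1 and 3 lay at 17.6% and 8.84% of alternative promoters, against 69.7% and 48.7% of canonical ones. Those of DPPA4 replicates 2 and 3 lay at 8.35% and 10.1%, against 49.1% and 49.4%. All 4 lists were thus lower at alternative promoters, and no p-value is given, here or for the other shares of promoters, because promoters in 1 list are not replicates.

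At equal CpG content the shares lay closer. Among windows with at least 100 but fewer than 150 CpG dinucleotides, 26.3% of 825 alternative and 25.9% of 1943 canonical promoters were bound. The shares were 52.8% and 50.6% from there to fewer than 200, and 67.7% and 64.4% at 200 or more. Below 25 CpG, none of 3218 alternative and none of 324 canonical windows was bound, and at 25 to 49 CpG 0.0880% and 0.564% were. Of the bound alternative promoters, 473 (81.0%) had a CpG island, and 30.3% of alternative promoters with an island were bound against 1.08% without. H3K27ac did not follow the same pattern: in the first of these classes, 42.1% of alternative promoters carried it, against 76.5% of canonical ones, and at 50 to 99 CpG 27.5% and 54.8% did. At 200 or more the shares were 66.9% and 76.4%.

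**Figure D1:**
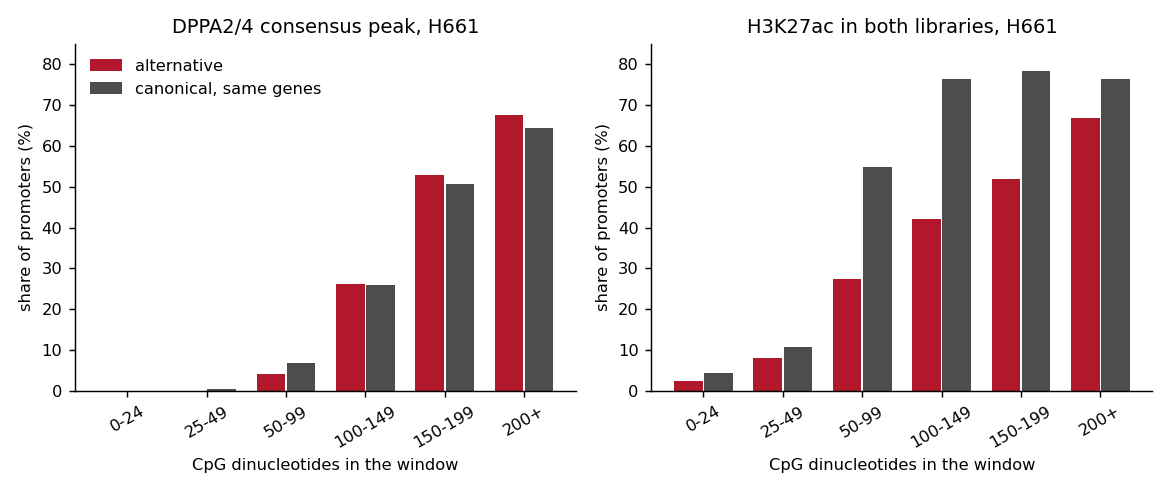
Share of promoters (vertical axis, %) with a DPPA2/4 consensus peak (left) or H3K27ac in both libraries (right) in NCI-H661, by CpG dinucleotides in the window (horizontal axis). Red bars are alternative promoters and grey bars canonical promoters of the same genes; the DPPA2/4 bars are of like height from 100 CpG upward, while the H3K27ac bars of alternative promoters stay below the grey ones in every class.

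Bound alternative promoters were nearer to the canonical TSS and more often upstream of the gene. Their median distance was 19840 bp, and 29.3% lay upstream. The bound share was 10.7% of upstream and 4.01% of inside promoters. It was 8.15% at 5 to 10 kb from the canonical TSS, 5.35% at 10 to 50 kb, 3.55% at 50 to 200 kb and 1.88% beyond 200 kb. Binding centred on the start site. Of 490 alternative promoters with a consensus peak centre within 1500 bp, the centre lay within 500 bp of the TSS at 290 (59.2%), against 1319 of 1836 canonical promoters (71.8%).

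**Figure D2:**
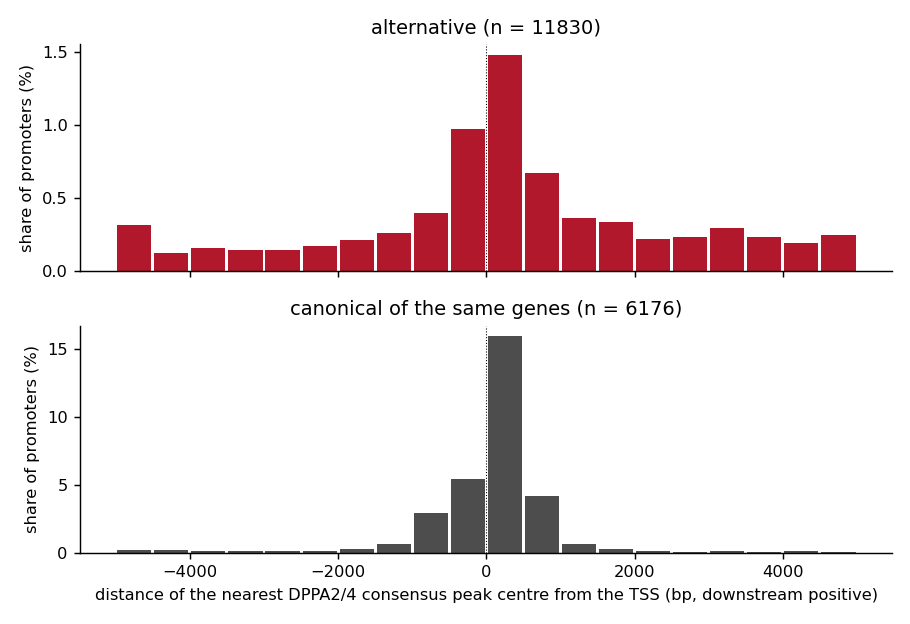
Share of promoters (vertical axis, %) whose nearest DPPA2/4 consensus peak centre fell in each 500 bp bin around the TSS (horizontal axis, bp, downstream positive), for alternative promoters (top) and canonical promoters of the same genes (bottom). Each panel has its own vertical scale; both are highest in the bin from 0 to 500 bp, at 1.48% of alternative and 15.9% of canonical promoters.

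LTBP3 and PALM had the highest-ranked DPPA2/4 peaks at an alternative promoter. Fold is the narrow peak's enrichment over input as the authors' caller gave it, listed for DPPA2 replicates 1 and 3 and then DPPA4 replicates 2 and 3. The start of LTBP3, a binding protein of latent TGF-beta, at chr11 position 65540683 stood at 39.1, 21.8, 19.9 and 18.7, against 15.3, 9.11, 9.44 and 9.56 at its canonical promoter. That of PALM, a membrane-associated protein, stood at 38.5, 23.7, 15.7 and 23.7, against 10.0, 8.20, 11.5 and 7.48. In both genes every list was higher at the alternative start. Next in rank came PRKAR1B (a regulatory subunit of protein kinase A), GRN (progranulin), RYR1, PLPPR3, POLRMT (the mitochondrial RNA polymerase), TNRC18, PTP4A3 (a tyrosine phosphatase), PTBP1 (a splicing regulator), VGLL4 and LINGO3. The lowest fold among these 12 genes was 12.1. The windows of GRN, RYR1, PLPPR3, POLRMT, TNRC18 and PTBP1 rest only on transcripts marked as having no found start, so the annotation gives no firm start there. The same holds below for PTOV1, MYBBP1A, CEP131, PDHX, RFC1, WWP1, MAP4, CLTC, AP3D1, ATG16L2, MYO15B and PLCB2. Peaks were ranked by these folds, so the values describe the choice and were not tested.

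For 276 of the 584 bound alternative promoters, of 209 genes, the canonical promoter held no consensus peak, and for the other 308 it did. Over all alternative promoters, 8.12% were bound where the canonical promoter was bound and 3.435% where it was not. A stricter count than the 276 is smaller, since 91 bound alternative promoters of 69 genes had a canonical promoter without a narrow peak in any of the 4 lists. ITGB2, the beta chain of the leukocyte integrins, was among them. Its alternative start, 11090 bp upstream (the first sequence above), stood at 19.9, 11.8, 11.9 and 10.7, and no list had a peak at the canonical start. TIAM1, an exchange factor for the GTPase Rac, showed the same at a start 214716 bp upstream, with 27.7, 15.7, 9.75 and 10.1. RYR1, the calcium release channel of skeletal muscle, reached 50.4, 27.4, 13.7 and 16.7 in a window deep inside the gene, 131708 bp from the canonical start. Only DPPA4 replicate 2 listed a peak at its canonical promoter, at 3.32. VGLL4, a cofactor of the TEAD transcription factors, stood at 30.4, 15.0, 15.0 and 13.1 at a start 75723 bp upstream, against 2.98, no peak, 5.77 and 4.92. PAX2, a transcription factor of kidney development, had 28.3, 12.5, 10.9 and 10.6, against 5.03, 4.79, 6.89 and 5.07. PAX2 thus had a peak in every list at both starts, but no consensus peak at the canonical one. The remaining genes of this group were GRN, PLA2G6, TMEM259 (also with no found start), AGAP3 and RAP1GAP2. GRN (3.935, 3.469, 4.683 and 4.155), TMEM259 (5.966, 7.015, 3.186 and 5.004) and AGAP3 (11.88, 6.515, 6.259 and 8.136) also had a canonical peak in every list. These 3 canonical promoters thus lacked only the overlap that a consensus peak needs. PLA2G6 and RAP1GAP2 had canonical peaks in some of the lists.

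**Figure D3:**
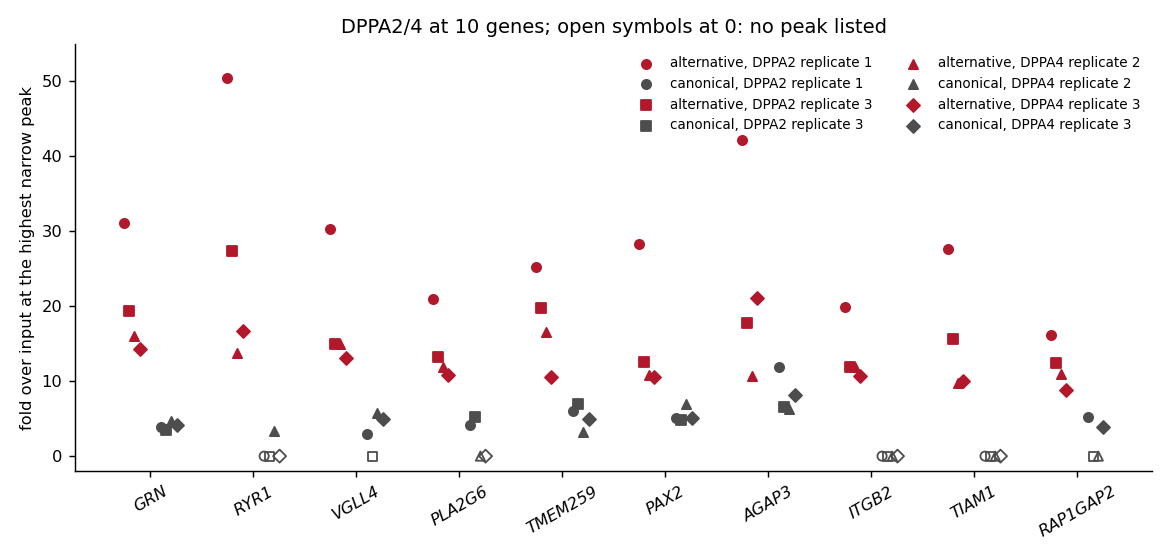
Fold over input (vertical axis) of the highest narrow peak in each of the 4 NCI-H661 DPPA2 and DPPA4 lists for 10 genes (horizontal axis), at the alternative (red) and canonical (grey) promoter. Open symbols at 0 stand for no listed peak; ITGB2 and TIAM1 have none at the canonical promoter, and RYR1 has 1, at 3.32.

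In NCI-H661, H3K27ac was less frequent and H3K36me3 more frequent at alternative than at canonical promoters. H3K27ac was found in both libraries at 1807 alternative promoters (15.3%), against 63.8% of canonical promoters of the same genes. H3K4me1 was at 13.4% against 31.2%, and H2AK119ub at 1050 (8.88%) against 28.1%. H3K36me3 ran the other way, at 3067 alternative promoters (25.9%) against 3.97%. H3K36me2 (4.38% against 5.10%) and H3K9me3 (3.33% against 3.43%) were close. Single libraries differed in depth: H3K27ac replicates 1 and 2 held islands at 17.7% and 31.4% of alternative promoters, and H2AK119ub replicates at 9.98% and 25.5%. Marked alternative promoters were also covered less in 1 library. The median H3K27ac island cover was 1004 and 1848 bp in replicates 1 and 2, against 1700 and 1800 bp at marked canonical promoters.

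The KDM2A and SUZ12 lists came from 1 library each. KDM2A narrow peaks lay at 124 alternative promoters (1.05%), against 12.7% of canonical ones. Of the 124, 5 had no CpG island, and at 114 the canonical promoter had no KDM2A peak. KDM2A peaks lay at 1.11% of all alternative promoters whose canonical promoter had none, and at 0.643% of those where it had one. SUZ12 peaks lay at 532 (4.50%), against 19.3% of canonical ones. With 1 library each, the spread between libraries is unknown. Promoters in 1 list are not replicates, so these shares were not tested.

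Position and annotation moved with the marks. Upstream alternative promoters carried H3K27ac in 22.7% and H3K36me3 in 3.45%, and inside ones in 14.1% and 29.5%. By distance, H3K27ac was at 22.2% of those at 5 to 10 kb, 17.9% at 10 to 50 kb, 10.2% at 50 to 200 kb and 6.71% beyond 200 kb. Where a transcript start had been found, 18.8% carried H3K27ac and 15.0% H3K36me3; where none had, 10.3% and 41.5% did. DPPA2/4 binding was at 6.22% and 3.11% of these classes. What part incomplete transcripts play in the low H3K27ac of all alternative promoters was not tested.

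Bound alternative promoters carried active and Polycomb marks more often than unbound ones. H3K27ac was at 68.2% of the 584 bound and 12.5% of the 11246 unbound, and H2AK119ub at 44.3% and 7.03%. H3K4me1 was at 49.3% and 11.6%, KDM2A at 16.4% and 0.249%, and SUZ12 at 14.6% and 3.97%. H3K36me3 was at 25.7% and 25.9% in all, but at 50.5% of bound and 26.4% of unbound promoters without a CpG island, and at 19.9% and 22.1% of those with one present. It was at 12.04% and 15.2% where a start had been found, and at 64.5% and 40.7% where none had. The difference remained in each library, at 68.7% and 15.1% for H3K27ac replicate 1 and 93.7% and 28.2% for replicate 2. It was also present among CpG-island promoters alone, where H3K27ac was at 68.3% of 473 bound and 30.7% of 1087 unbound, and H2AK119ub at 43.1% and 28.1%. SUZ12 went the other way within CpG islands, at 17.8% of bound and 23.2% of unbound promoters. H3K27ac and H2AK119ub occurred together at 174 bound alternative promoters (29.8%), H3K27ac alone at 38.4%, H2AK119ub alone at 14.6% and neither at 17.3%. Bound canonical promoters of the same genes were distributed as 31.5%, 57.3%, 7.09% and 4.11% over these classes. The share with both marks was alike at the 2 kinds of promoter, and bound alternative promoters had neither mark more often.

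An alternative promoter could carry a mark that the canonical promoter of its gene lacked. For H3K27ac this was so at 315 of 1807 (17.4%), for H2AK119ub at 351 of 1050 (33.4%) and for H3K36me3 at 2777 of 3067 (90.5%). With no island in either library at the canonical promoter, 129 (103 genes), 153 (124 genes) and 1972 (1306 genes) remained. Each mark was nonetheless more frequent where the canonical promoter carried it. H3K27ac was at 20.0% of such alternative promoters, against 7.19% where the canonical promoter lacked it. H2AK119ub was at 19.3% against 4.27%, and H3K36me3 at 72.5% against 24.3%. ITGB2 held 27 and 58 H3K27ac reads in replicates 1 and 2 with no input read, at log2 folds of 6.70 and 6.61, and also H2AK119ub at 4.11 and 3.35. ANK2, an ankyrin of heart and brain, carried H3K27ac 231548 bp upstream with 26 and 56 reads, at 4.65 and 4.05. It had no CpG island and no DPPA2/4 peak, and NCI-H1299 cells marked it too, at 2.03 and 2.75 in DOX and 2.39 and 4.81 in control libraries. SLC12A5, the neuronal potassium-chloride cotransporter, had 3.75 and 5.21. The others were ARHGAP32, TUBB8, TBC1D1, COL23A1, NAA60, HJV (hemojuvelin) and IPO5.

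The matching H2AK119ub starts were mostly without H3K27ac. LRRC4C, a synaptic adhesion protein, carried H2AK119ub 1166522 bp inside the gene with 17 and 37 reads and no input read, at 5.80 and 5.92. CD247, the zeta chain of the T cell receptor, had 4.52 and 3.57. STON2 had 3.17 and 4.02 in NCI-H661, and it also had H2AK119ub in DOX (4.28 and 4.54) and control libraries (3.70 and 2.75). PRICKLE2, a planar polarity protein, had 3.04 and 3.11. In these 4 genes no NCI-H661 library had H3K27ac at the alternative start, whereas TNFRSF19, SUN1, WIPF1 and EMC3 had both marks; WASHC1 and LIMCH1 had H2AK119ub without H3K27ac. TUBB8 and WASHC1 belong to multicopy families whose reads may be split between copies, so their values are uncertain. GPSM1, WNT3, KDM2B, PTOV1, ITGB2 and SUN1 led the starts with H3K27ac, H2AK119ub and DPPA2/4 together.

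The gene lists below were chosen with earlier results of these data known, so they describe and do not test. Wnt signalling genes had 54 alternative promoters in 26 genes. DPPA2/4 bound 7 of them in 4 genes (12.96%), beside 4.94% of all alternative promoters, and 14 carried H3K27ac (25.9%, beside 15.3%). The 4 genes were WNT3 and WNT5B, secreted ligands, DVL1, the cytoplasmic transducer, and BCL9L, a coactivator of beta-catenin. WNT3 stood at 17.4, 11.8, 11.6 and 7.76 at a start 47245 bp inside the gene, with H3K27ac of 3.63 and 4.57 and H2AK119ub of 3.88 and 4.52. At its canonical promoter only DPPA2 replicate 1 and DPPA4 replicate 3 listed a peak, at 5.27 and 5.49. WNT3, WNT5B and DVL1 each count 2 overlapping windows that share 1 set of peaks, and those of DVL1 have no found start. Of the 54, 14 had a CpG island, a feature of 13.2% of all alternative promoters that itself goes with binding.

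Developmental transcription factors had 154 alternative promoters, of which 17 in 12 genes were bound (11.0%, beside 4.94% of all), 38 carried H3K27ac (24.7%, beside 15.3%) and 39 H2AK119ub (25.3%, beside 8.88% of all). CpG islands were present in 60 of the 154. The 17 include overlapping windows that share peaks, at RUNX1, at FOXP2 and between HOXC4 and HOXC6. RUNX1, a master regulator of blood formation, was bound around a start 160612 bp inside the gene, at 14.1, 6.39, 7.81 and 5.00. FOXP2, linked to speech development, was bound 328311 bp upstream, at 8.52, 5.08, 6.19 and 3.48. HOXB3, an anterior patterning gene, had 27.6, 6.26, 5.21 and 12.4. None of these 3 genes had a narrow peak at the canonical promoter, and RUNX1 and HOXB3 carried H2AK119ub there. GATA2, a blood stem cell factor, was bound at both starts, at 15.7, 7.30, 7.39 and 14.5 against 35.3, 15.2, 10.1 and 14.5. HOXC4, HOXC6, LHX2, NFIC, NFIX, PAX2 and RARA were others of the 12.

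Chromatin regulators were near the background, with 6 of 146 bound (4.11%), in ARID1B, KDM2A, KDM2B (overlapping windows), PCGF2 (no found start) and PHC2. Lung cancer genes had 2 of 86 (2.33%), at AXL, a receptor tyrosine kinase, and KEAP1 (no found start), the adaptor that targets NRF2 for degradation. The internal start of KDM2A, which is known to encode a short form of the protein, was bound at 8.32, 7.68, 8.39 and 5.26, against 20.8, 12.2, 10.7 and 6.80 at the canonical start. Genes with alternative promoters described in textbooks had 40 of 309 bound (12.9%), in 17 genes, and 90 of their 309 windows had CpG islands. Some of the 40 are overlapping windows that share peaks, as at DPYSL2 and NRXN2. PLEC, the cytolinker plectin, whose many first exons target it to different junctions, contributed 7 windows, and PDE4D, a cAMP phosphodiesterase, was bound 854214 bp inside the gene at 17.9, 8.19, 6.55 and 7.24 with no peak at its canonical start.

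For H3K27ac, a smaller share of marked alternative than of marked canonical promoters was common to the cell lines. H3K27ac was in both NCI-H661 and neither control library of NCI-H1299 at 1201 alternative promoters (10.2%, beside 11.3% of all 30941), and in both control and neither NCI-H661 library at 123 (1.04%, beside 0.873%). It was in all 4 libraries at 394. Leaving aside promoters with an island in only 1 control library, 24.7% of the alternative promoters marked in NCI-H661 were also marked in control cells, against 77.0% of the canonical ones. H2AK119ub was in NCI-H661 only at 621 (beside 9.25% of all), in control only at 71 (beside 1.51%) and in all 4 at 138. The same share was lower at alternative promoters for H2AK119ub (18.2% against 28.6%) and H3K4me1 (39.9% against 70.2%), and higher for H3K36me3 (69.3% against 39.1%) and H3K9me3 (5.57% against 1.54%). The H3K9me3 shares rest on only 20 alternative and 3 canonical promoters marked in both lines. NCI-H661 had more H3K27ac reads in islands (2162089 and 6044278) than control cells (774886 and 759619), and cell numbers differed, so depth, preparation and line cannot be told apart.

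**Figure D4:**
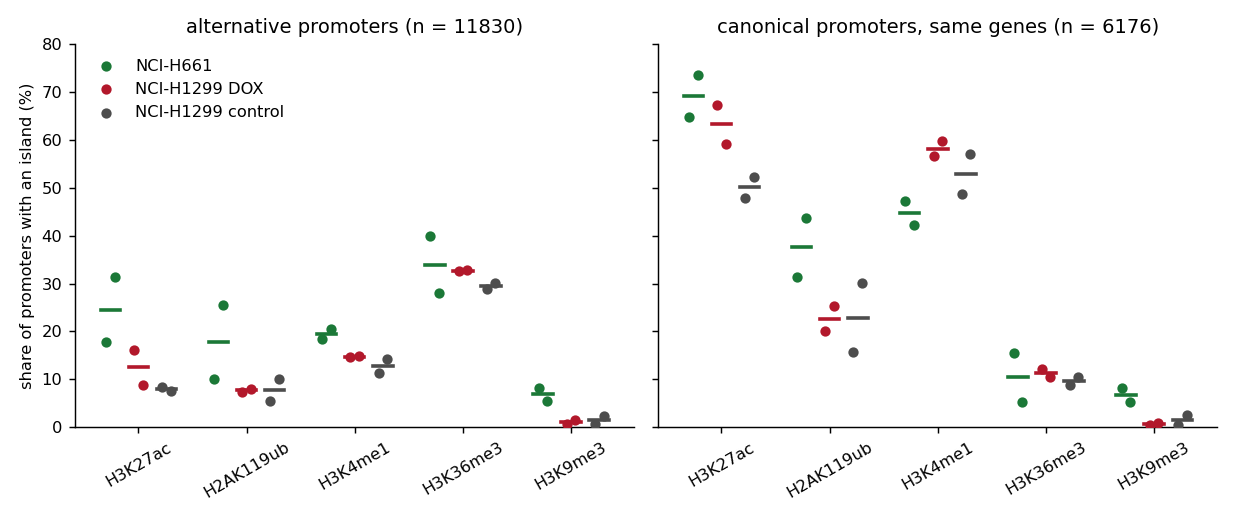
Share of promoters (vertical axis, %) with an island of each histone mark (horizontal axis) in each library, for alternative promoters (left) and canonical promoters of the same genes (right). Points are the 2 libraries of a group and bars their mean; for H3K36me3 the points are higher on the left, and for H3K27ac DOX replicate 1, at 16.1%, stands above the other 3 NCI-H1299 libraries at alternative promoters.

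Where the canonical promoter held H3K27ac in all 4 libraries, the alternative promoter could still differ. Among the 4720 alternative promoters of such genes, 531 (394 genes) were marked in NCI-H661 only and 62 (55 genes) in control cells only. For scale, these calls were made at 10.2% and 1.04% of all alternative promoters, and at 11.3% and 0.873% of all scored promoters. The 531 of 4720 thus lie near the shares over all promoters, and neither count was tested. The NCI-H661-only set was led by SLC19A1 (the reduced folate carrier), GSE1 and ZNF846. GSE1, a component of a histone deacetylase complex, was marked 443797 bp upstream with 20 and 88 reads in NCI-H661 at log2 folds of 6.27 and 5.61, and had none in control cells. DOX cells had islands there too, with 17 and 10 reads. PAX6, a regulator of eye and brain development, had 16 and 46 reads. GPSM1, FBRS, GNG4, MYBBP1A, CEP131 and RACK1 completed the group of 10, of which GSE1 and GPSM1 were bound. The control-only set was led by GLDC, the glycine decarboxylase, with 93 and 69 reads in control cells at 6.01 and 5.61 and none in NCI-H661. ACVR1, a receptor of the BMP family, had 52 and 28 reads with no input read, at 4.88 and 4.73. ZNF730, PDHX, ZNF438, RBPJ (the Notch effector), IFRD1, WNK1 and RFC1 were others. None of those named was bound in NCI-H661, and ZNF730 alone had a CpG island. The islands of RFC1 reached only 188 and 13 bp into its window.

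Quantitative tests were possible only where islands of every library covered at least 50% of a joined region, so a start marked in a single line was not tested. Reads per region were compared with edgeR's quasi-likelihood test over all regions of the mark, and called at an adjusted p below 0.05 with a log2 change of at least 1. For H3K27ac, 80 of 3005 regions touched an alternative promoter. Of these, 3 were higher in NCI-H661 (3.75%, beside 4.29% of all regions) and 9 lower (11.2%, beside 5.62%). The higher regions were NAA60, an N-terminal acetyltransferase (495.5 and 452.3 CPM, reads scaled to library size, in NCI-H661 against 178.8 and 198.6 in control cells; log2 1.32 ± 0.23 SE, edgeR adjusted p = 0.000482), TGIF1 (log2 1.26) and BCL9L (1.03). Those of TGIF1 and BCL9L ran on to the canonical promoter. Among the lower regions, CLIP1, a microtubule plus-end protein, had 249.6 and 263.9 CPM against 645.5 and 731.4 (log2 -1.42 ± 0.21 SE, edgeR adjusted p = 0.000133). HOXB3 had 484.5 and 435.7 against 1343 and 1070.0 (-1.40). SEPTIN9, a cytoskeletal GTPase, had 389.1 and 456.8 against 1117 and 1020.0 (-1.33). In each of these genes the NCI-H661 and control values did not overlap. KCTD10 (-1.34), ZNF19 (-1.28), EMP1 (-1.16), CYRIB (-1.11), MAP3K14 (-1.10) and GSN (-1.04) were lower as well. Divided by covered length, 0 regions were higher and 4 lower. With no coverage minimum the balance turned, with 88 of 395 regions higher and 49 lower. For H2AK119ub, 0 of 7 alternative regions were called in edgeR (beside 1.8% of 111 regions higher and 0% lower), and 0 had an unadjusted p under 0.05.

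**Figure D5:**
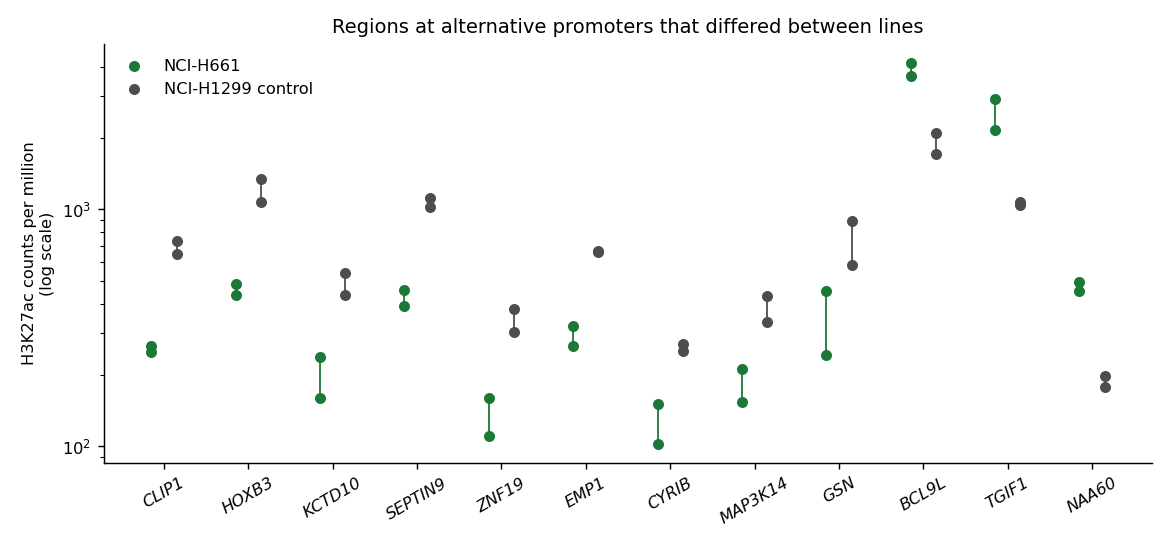
H3K27ac reads per region in CPM (vertical axis, log scale) for the 12 regions at alternative promoters (horizontal axis, by gene) that differed between lines, in the 2 NCI-H661 and 2 NCI-H1299 control libraries. The points of the lines do not overlap at any region; NCI-H661 is lower from CLIP1 to GSN and higher at NAA60, TGIF1 and BCL9L.

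The balance between the alternative and canonical promoter of a gene was compared as a ratio of reads, which removes library size. Only 15 pairs in 14 genes had separate, well-covered regions in all 4 libraries. With limma, 4 ratios were lower in NCI-H661 (26.7% of the 15, which are all pairs tested) and 0 higher. The fit gave all 15 pairs the same SE (0.3035), shared over the pairs. Its p-values therefore do not measure the replicate spread of a single gene. KCTD10, a Cullin adaptor, had ratios of 0.414 and 0.367 in NCI-H661 against 1.49 and 1.57 in control cells (log2 -1.96, limma adjusted p = 5.68e-06). The alternative start of KCTD10 thus had fewer reads than the canonical one in NCI-H661 and more in control cells. CLIP1 had 0.519 and 0.401 against 1.34 and 1.34 (-1.55), ARID1B 0.300 and 0.239 against 0.844 and 0.547 (-1.34), and ZNF217 0.623 and 0.485 against 1.00 and 1.56 (-1.18). Per covered length, KCTD10 (-1.07) and CLIP1 (-1.40) remained called, and ARID1B (-0.79) and ZNF217 (-0.81) did not, at a limma adjusted p of 0.0681 each. Without NCI-H661 replicate 2, 0 of 32 pairs passed.

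Inducing DPPA2/4 in NCI-H1299 cells was compared with water. H3K27ac islands lay at 16.1% and 8.89% of alternative promoters in DOX libraries, against 8.43% and 7.49% in control libraries. The means were 12.5 ± 5.09% and 7.96 ± 0.66% (SD, n = 2 each; exact permutation p = 0.33, the smallest the design allows). The DOX mean rested on replicate 1, whose list held 49726 islands and 2777360 reads, against 28105 to 35357 islands and 759619 to 979366 reads in the other 3. Without it the difference was 0.934 percentage points. Canonical promoters of the same genes stood at 67.3% and 59.2% in DOX, against 47.9% and 52.2% in control libraries. H2AK119ub did not separate the groups, at 7.38% and 8.06% in DOX against 5.54% and 10.1% in control libraries. H3K4me1 (14.6% and 14.8% against 11.3% and 14.3%) and H3K36me3 (32.7% and 32.7% against 28.9% and 30.1%) were higher in both DOX libraries, by 1.91 and 3.19 percentage points of the means (exact permutation p = 0.33 each). Their DOX lists also held more reads. H3K4me1 had 1696781 and 1762776 in DOX against 1123702 and 1685486 in control lists. H3K36me3 had 3657645 and 3531946 against 2681872 and 2773158. Depth and DOX cannot be told apart for these 2 marks.

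More alternative promoters gained H3K27ac than lost it. An island was in both DOX and neither control library at 176 (1.49%, beside 3.71% of all scored promoters) and in both control and neither DOX library at 19 (0.161%, beside 0.113%). With DOX replicate 1 left out, 300 were gained and 68 lost. A gain then needed an island in only 1 DOX library, while a loss still needed islands in both control libraries. These 2 counts therefore cannot be set against each other. Of the gained, 76 had a CpG island; none of the lost had. Of alternative promoters bound in NCI-H661, 36 (6.16%) gained it and 0 lost it, against 140 (1.24%) and 19 (0.169%) of the unbound. Most bound ones (81.0%) had a CpG island, and 4.87% of all alternative promoters with an island gained H3K27ac, with 0 lost. Canonical promoters of the same genes gained it at 5.78%. Whether binding goes with the gain apart from CpG content was not tested. The canonical promoter of the gene was marked in all 4 libraries for 74 of the 176, in none for 40, and also gained for 11. FRMD4A, a scaffold protein of epithelial polarity (the fifth sequence above), had 62 and 15 reads in DOX and no island in control libraries. DOCK9, an exchange factor for CDC42, had 38 and 9 reads with no input read, and was bound in NCI-H661 at 11.9, 8.39, 6.31 and 7.30. SNU13, a component of the spliceosome, had 122 and 44. KIAA0930, RUFY1, RAP1GAP2, KIAA1522 and SRP54 were the next. In each, DOX replicate 2 had fewer reads than replicate 1. The lost starts, SPATS2L, WNK1, DST, WWP1, MAP4, SENP6, CLTC and XPOT, had 6 to 56 reads per control library. Some of these islands only reached the edge of the window: the second control island reached 5 bp into that of SPATS2L and 124 bp into that of WNK1, a kinase of ion transport.

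H2AK119ub gains and losses were nearer in number, at 132 (1.12%, beside 2.39% of all) and 87 (0.735%, beside 1.63%). PTP4A3 had the first rank among gains, with 56 and 52 reads in DOX and no island in control libraries, ahead of EPB41L1, NOL4L, ARHGEF18, AP3D1, MAP3K14, ATG16L2 and KDM2B. VGLL4 led the losses, with 16 and 27 reads in control libraries, the first of which reached 38 bp into the window. NHERF1, MYO15B, SSPN, ANKRD24, PLCB2, DPEP2 and MLXIP followed; the first MLXIP island reached 21 bp into its window. H3K4me1 was gained at 151 (1.28%) and lost at 62 (0.524%) alternative promoters, H3K36me3 at 225 (1.90%) and 66 (0.558%), and H3K9me3 at 8 (0.068%) and 11 (0.093%). Canonical promoters of the same genes gained and lost H3K4me1 at 3.43% and 1.41%, H3K36me3 at 1.46% and 0.761%, and H3K9me3 at 0.049% and 0.097%. For H3K4me1 and H3K36me3 the DOX lists held more reads than the control lists, so depth and DOX cannot be told apart.

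Among regions covered in every NCI-H1299 library, few passed the test for DOX. With edgeR, replicate number as a block and a log2 change of at least 0.5, 0 of 134 H3K27ac regions at alternative promoters were called (beside 0% of 3436 regions); 13 had an unadjusted p under 0.05, and the smallest adjusted p was 0.527. DESeq2 also called 0. Both scaled the libraries on the tested regions themselves, whose median log2 change was -0.0147 in edgeR. A rise shared by most of these regions would be scaled away, so the test cannot show one. For H2AK119ub 0 of 12 were called (beside 0% of 132), none at an unadjusted p under 0.05. For H3K4me1, 1 of 389 was higher (0.257%, beside 0.0282%) and 0 lower (beside 0%). It lay at MTHFD1L, a mitochondrial folate enzyme, 168830 bp inside the gene, with 585.1 and 561.2 CPM in DOX against 380.8 and 339.2 in control libraries (log2 0.67 ± 0.13 SE, edgeR adjusted p = 0.0262). For H3K36me3, 2 of 1190 were higher (0.168%, beside 0.168%) and 0 lower (beside 0.042%). SPG7, a mitochondrial protease, had 879.1 and 816.8 CPM against 586.8 and 588.2 (log2 0.53, edgeR adjusted p = 0.000133), in a region that also spans its canonical promoter. BMAL2, a circadian transcription factor, had 190.5 and 174.5 against 121.6 and 101.9 (0.71, edgeR adjusted p = 0.0484). Values did not overlap at these 3 regions, but none was called with DESeq2 or per covered length, where the log2 changes were 0.0016, -0.06 and -0.02 in that order. With no replicate block, 0 H3K4me1 regions and 1 H3K36me3 region were called, and MTHFD1L and BMAL2 lost their calls. In 21 pairs of alternative and canonical H3K27ac regions, limma called 0 ratios (0% of the pairs tested; 2 at an unadjusted p under 0.05).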

How the data were processed

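The samples were ChIP-seq libraries of NCI-H661 and NCI-H1299 cells, 42 in all with inputs, grouped by GEO's labels. The authors aligned reads to hg38 with BWA 0.7.13; their notes also list Picard 2.6.0, deepTools 3.5.0, Trim Galore 0.6.6 and SAMtools 1.9. They deposited 44 lists, called per replicate against input. Each of the 38 EPIC2 lists gives, per island, the deposited ChIP and input read counts together with a log2 fold, a score, a p-value and its FDR. Each of the 6 MACS2 lists gives, as the authors deposited it, a fold enrichment (a ratio), a score and −log10 p and q values. The authors' blacklist was not used here. Because the lists hold only intervals past the callers' thresholds, a missing island is not a measured 0.

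Members, gene lists and tests were chosen with earlier results of these data known. Named promoters were the highest ranked, 1 per gene, by the lowest fold or log2 fold of a group's libraries (for DPPA2/4, by percentile within each list), in 12, 10, 8 or 6 places per class, together with every region called by a test; some of these are not reported here. Islands of the libraries compared were joined into regions and each library's deposited ChIP counts summed. Regions covered to at least 50% in every library were fitted with edgeR 4.0.16 (quasi-likelihood, TMM, in R 4.3.3), with replicate number as a block for DOX as in the study's methods. TMM was computed on these regions. The study computed it on large genomic bins and added mouse cells to treatment ChIPs as a reference, and neither was used here. Ratios of alternative to canonical counts were fitted with limma 3.58.1 after adding 0.5. Benjamini-Hochberg adjustment ran over all regions or pairs. H3K9me3 had no tested region at an alternative promoter. DESeq2 1.42.0, other limits, windows, distances and left-out libraries were alternatives. The fits were tested on simulated data. Other computing used Python 3.11.15, pandas 2.3.3, NumPy 2.4.6 and SciPy 1.17.1.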

Additional observations from a re-analysis of the deposited data

Results flagged for a closer look

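The island lists of the factors were not used for the comparisons above, which rest on their narrow peaks, and they show a signal at alternative promoters. DPPA2 islands of replicates 1 and 3 lay at 24.7% and 22.6% of alternative promoters, against 77.6% and 67.0% of canonical promoters of the same genes. DPPA4 islands of replicates 2 and 3 lay at 24.2% and 27.6%, against 70.3% and 71.6%. KDM2A islands lay at 6.71%, against 57.8%, and SUZ12 islands at 9.32%, against 28.6%. For each factor the islands touched more alternative promoters than the narrow peaks did. Islands are wider than narrow peaks and were called by another program, so the shares of the 2 kinds of list do not measure the same thing.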

How the results depend on the processing

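Of 266 alternative values for the main shares and counts, 182 kept within the limits set for them and 84 moved. For single named values and the smaller shares, 308 kept within them, 50 moved, 45 lost their call and 9 turned direction. Of 100 named promoter values, 31 could not be given in the 500 bp window, where a library no longer had a peak or island. The bound share (4.94%) kept within its limit under every alternative, and was 5.12% to 5.91% with a single DPPA2 or DPPA4 replicate left out. That limit was the SD of the 4 single-list shares (17.6%, 8.84%, 8.35% and 10.1%). It is wide beside a share of 4.94%, so keeping within it says little. H3K27ac and H2AK119ub in NCI-H661 were at 17.7% to 31.4% and 9.98% to 25.5% with either replicate alone. Bound minus unbound shares were 53.6 to 65.5 points for H3K27ac and 38.5 to 50.4 for H2AK119ub with 1 library, and 20.2 for H2AK119ub at a log2 fold above 2 and 28.2 in a 500 bp window. DOX minus control H3K27ac ranged over 0.934 to 8.14 points. For H2AK119ub that difference was -0.11 points and turned positive at a log2 fold above 2 (0.761), in a 500 bp window (0.448), at 25% coverage (0.469), beyond 10 kb (0.0620), with a found start (0.166), without DOX replicate 1 (0.228) and without control replicate 2 (2.18), with a range of -2.40 to 2.18 over left-out libraries; the cause was not tested.

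Counts of gained H3K27ac were 105 at 25% coverage, 37 with supported transcripts and 251 to 968 with 1 library left out. Lost H3K27ac gave 44 at a log2 fold above 2, and 4, 0 and 32 to 216 under the same 3 settings. H2AK119ub gains were 72, 25 and 180 to 401, and losses 40 at a log2 fold above 2, 39 in a 500 bp window, then 27, 21 and 138 to 608. H3K27ac in NCI-H661 only was at 193 with supported transcripts, 763 with a found start and 1301 to 2925 without a library; in control cells only, it was at 54 at 25% coverage, 33 with supported transcripts and 139 to 340 without a library. Restricting transcripts leaves fewer promoters by construction. Leaving out a library drops 1 condition of a call, so those counts could only stay or rise, and not equally for gains and losses. The found-start restriction was added after the data were seen.

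In the edgeR regions for DOX, H3K27ac gave 2 higher without a coverage minimum and 0 to 1 lower without a library. H3K4me1 gave 0 higher with DESeq2, without a coverage minimum, per covered length, at a log2 fold above 2 and with no replicate block, and 0 to 3 higher and 0 to 1 lower without a library. H3K36me3 gave 0 higher with DESeq2, per covered length and at a log2 fold above 2, 1 with no replicate block, 32 without a coverage minimum (1 lower), 0 to 13 higher and 0 to 3 lower without a library, and 2 lower at a log2 fold above 2. Per covered length the log2 changes of BMAL2 and SPG7 became -0.0234 and -0.0611. Between lines, H3K27ac regions numbered 88 higher and 49 lower without a coverage minimum, 0 and 4 per covered length, 1 and 2 at a log2 fold above 2, and 3 to 9 and 14 to 29 without a library; H2AK119ub gave 33 and 8 without a coverage minimum. Ratios between lines gave 7 higher and 14 lower without a coverage minimum, 2 lower per covered length, and 0 to 2 higher and 0 to 11 lower without a library, 0 of them without NCI-H661 replicate 2.

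Replicate numbers are only names in these labels. With 2 pairs, deviations of same-numbered libraries correlated at 0.04 to 0.09 for H2AK119ub, H3K4me1, H3K36me3 and H3K9me3 with DOX, at 0.26 for H3K27ac with DOX, and at 0.13 (H3K27ac) and 0.09 (H2AK119ub) between lines; the block between lines left the counts at alternative promoters as they were, while over all H3K27ac regions it gave 126 higher and 163 lower, against 129 and 169 without it. The DESeq2 test for H3K9me3 and the H2AK119ub fits at a log2 fold above 2 were not run for want of regions. Depth limits the quantitative tests to 80 and 134 H3K27ac regions of the alternative promoters, and folds over an input of 0 reads move with depth.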
